A study of Rattus norvegicus with 16 samples.

Results

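miR-126a, miR-143 and miR-145 are the microRNAs best known from the walls of blood vessels. Every row named rno-miR-126a, rno-miR-143 or rno-miR-145, with any arm suffix, was taken, which gave 6 mature miRNAs of the 722 listed: rno-miR-126a-3p, rno-miR-126a-5p, rno-miR-143-3p, rno-miR-143-5p, rno-miR-145-3p and rno-miR-145-5p, the 3p and 5p arms of each hairpin. The rows were picked by name and not by a threshold on any value, though earlier results of these data were known when these miRNAs were chosen. Small RNA was sequenced from brain tissue of 60 day old rats of 2 lines, named high responder (HR) and low responder (LR), lines bred for how strongly a rat explores a new place. The 4 groups were HR amygdala, LR amygdala, HR dorsal raphe and LR dorsal raphe, with 4 libraries in each and 16 in all, and the labels name no treatment or engineered allele in any of them. Which question the lines and regions were meant to answer is not stated in the labels, and nothing in them ties the libraries of a group to different animals, so the p-values measure only the spread between these libraries, which may be technical. All libraries came from dissected tissue: fewer cells of a type and less RNA per cell cannot be told apart in any value below.

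A miRNA is cut from a hairpin whose 5p and 3p strands can each be loaded into an Argonaute protein, and the loaded strand finds its target mRNAs mainly through its seed. miR-126 lies in an intron of Egfl7, a gene of endothelial cells, and work in mouse and zebrafish showed that its 3p strand represses Spred1 and Pik3r2, brakes on the signalling of vascular endothelial growth factor. miR-143 and miR-145 are made together in vascular smooth muscle cells and pericytes, the mural cells that wrap the endothelium, and in mouse they hold smooth muscle in its contractile state, with Klf4, Klf5 and Elk1 among their targets. Below, miR-126 is therefore named endothelial, for the lining of the vessels, and the other pair mural, for their wall. The cells that made these strands were not tested in these tissue libraries.

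The mature sequences of all 6 members were found in RefSeq by name and are shown because the arms of a hairpin, which the counts separate, carry different seeds. They are written 5′ to 3′ with the seed, bases 2 to 8, in capitals.
miR-126a-3p: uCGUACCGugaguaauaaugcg
miR-126a-5p: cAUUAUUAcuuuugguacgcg
miR-143-3p: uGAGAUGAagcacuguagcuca
miR-143-5p: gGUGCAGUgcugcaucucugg
miR-145-5p: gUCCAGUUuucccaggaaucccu
miR-145-3p: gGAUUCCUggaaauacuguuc
The 6 seeds differ from one another, and none is shared by another listed miRNA among the 644 of 722 that matched a RefSeq sequence. In the rat GRCr8 build the arms of miR-126a lie on the plus strand at chr3:29813219-29813240 (3p) and chr3:29813182-29813202 (5p), inside Egfl7. miR-126b is annotated on the opposite strand at chr3:29813177-29813198 and overlaps the 5p arm of miR-126a by 17 bases. Its sequence is shown because a read counted without regard to strand could fall to either.
miR-126b: uACCAAAAguaauaaugugcug
miR-126b had 1 to 15 counts in a library, against 703 to 11664 for miR-126a-5p. miR-143-3p lies at chr18:57371373-57371394 and miR-145-5p at chr18:57370033-57370055, both on the minus strand. The hairpins of miR-145 and miR-143 are 1278 bases apart inside the long noncoding gene Carmn. They are printed with both arms in capitals because the counts of the 2 arms are set against each other below.
Mir143 hairpin: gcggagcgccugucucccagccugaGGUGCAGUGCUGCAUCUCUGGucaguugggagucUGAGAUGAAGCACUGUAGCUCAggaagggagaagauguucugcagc
Mir145 hairpin: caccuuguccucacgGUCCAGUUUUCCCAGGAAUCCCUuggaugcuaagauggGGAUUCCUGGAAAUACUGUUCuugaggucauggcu

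The libraries held 1741167 to 8134915 counts, and a floor of 3 counts stood at 0.369 to 1.72 CPM (counts per library total, scaled to a common size), far under every member. All 6 members passed the filter on low counts, as did 639 of the 722 miRNAs. In 2 libraries the members' values stood apart with the rest of the table: LR dorsal raphe replicate 4 and HR amygdala replicate 1 had the widest departures from their groups, with root mean squares of 1.03 and 0.968 on the log2 scale over all miRNAs tested. They also held the 2 lowest totals, 2096188 counts in LR dorsal raphe replicate 4 and 1741167 counts in HR amygdala replicate 1. Results that rest on either are given with and without it. HR amygdala replicate 4 came next in departure, with a root mean square of 0.880, and was kept where both of these were left out.

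miR-126a-3p and miR-143-3p were among the most abundant miRNAs of every library. rno-miR-126a-3p, the main endothelial strand, took 0.746% to 3.41% of a library's counts and ranked between 6 and 26 of all miRNAs listed. rno-miR-143-3p, the main mural strand, took 1.73% to 6.27% and ranked between 3 and 19. The partner strands were far lower. miR-126a-5p ranked between 60 and 120, miR-145-5p between 97 and 180, miR-145-3p between 190 and 249, and miR-143-5p between 245 and 336. miR-145-5p, the strand of its hairpin usually loaded, therefore stood well below the strand of miR-143 made from the same transcript. Levels below are CPM of mature reads after scaling by the trimmed mean of M-values, a factor that keeps a few very abundant miRNAs from setting the level of the others.

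miR-126a-3p averaged lower levels in amygdala than in dorsal raphe in both lines, a difference that ended at the threshold of the test. Its level was 11874, 15158, 23904 and 20984 CPM in the 4 HR amygdala libraries and 9920, 14775, 14511 and 20314 CPM in the 4 LR amygdala libraries. It was 20368, 33929, 23109 and 31892 CPM in HR dorsal raphe and 24027, 24418, 32536 and 12517 CPM in LR dorsal raphe. The ranges of the regions overlapped in both lines, in LR rats only through the low dorsal raphe replicate 4. The means were 17980.1 ± 5458 CPM in HR amygdala, 14880.0 ± 4253 CPM in LR amygdala, 27325 ± 6599 CPM in HR dorsal raphe and 23375 ± 8233 CPM in LR dorsal raphe (SD, n = 4 each). From low to high the order was LR amygdala, HR amygdala, LR dorsal raphe and HR dorsal raphe, and each step between neighbours in that order was smaller than the SD of either neighbour.

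**Figure D1:**
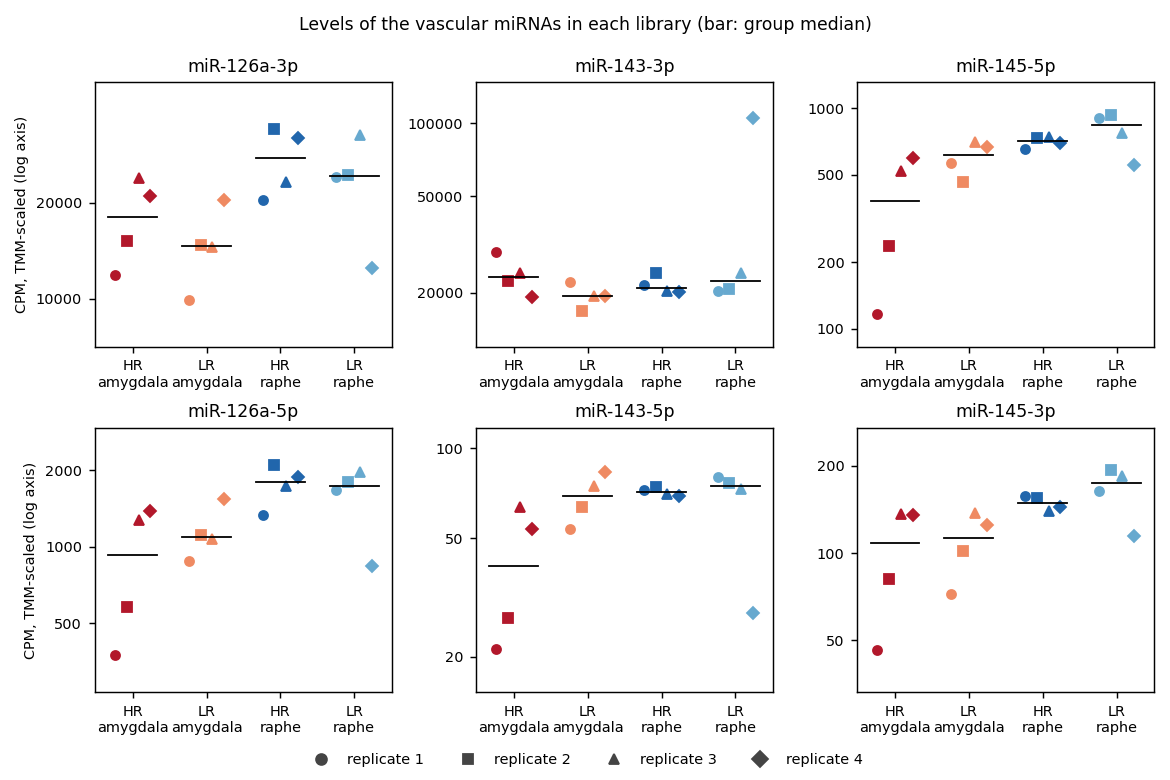
Level of each member in each library, in CPM on a log axis, with the 4 groups side by side and a bar at each group's median. miR-126a-3p lies between 9920 and 23904 CPM in amygdala and, apart from LR dorsal raphe replicate 4, between 20368 and 33929 CPM in dorsal raphe; miR-143-3p lies between 16733 and 29448 CPM except in that library, at 105322 CPM.

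Averaged over the lines, miR-126a-3p had a log2 fold change of -0.63 ± 0.22 (SE) for amygdala over dorsal raphe, with a 95% interval of -1.10 to -0.15, which is 1.55-fold lower. The adjusted p was 0.0503 (edgeR's quasi-likelihood test, Benjamini-Hochberg over 639 miRNAs), just past the threshold of 0.05. Called at that threshold in this comparison were 24.3% of all miRNAs tested, 14.9% as lower in amygdala, and 0 of the 6 members. An unadjusted p under 0.05 by edgeR was held by 4 members and by 249 of the 639 miRNAs. The threshold was close enough that other settings moved the call. Without LR dorsal raphe replicate 4 the log2 fold change was -0.69 with an adjusted p of 0.0144 by edgeR, and without HR dorsal raphe replicate 1 it was -0.68 with 0.0385. With the replicate number as a block it was -0.66 with 0.0375. That block covered all 4 groups, though the number was taken to pair only HR and LR amygdala. Across regions the correlations of same-numbered libraries were mixed. They were 0.675, -0.275, 0.353 and 0.531 between the HR groups and -0.293, -0.0009, 0.158 and -0.285 between the LR groups. What the number marks is not stated in the labels. Over 23 alternatives the log2 fold change lay between -0.70 and -0.44, always lower in amygdala, and the adjusted p between 0.0144 and 0.194, under the threshold in 6. Of the members, 3 were called without LR dorsal raphe replicate 4, beside 32.0% of all miRNAs, 2 without both libraries that stand apart, beside 32.7%, and 3 by DESeq2, beside 32.3% of the miRNAs it gave an adjusted p. With the lines put together, the 8 amygdala and 8 dorsal raphe libraries overlapped for all 6 members and were apart for 6.57% of all miRNAs.

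miR-126a-5p, the passenger strand of the same hairpin, had lower levels. It had 374, 578, 1281 and 1383 CPM in HR amygdala and 881, 1112, 1073 and 1541 CPM in LR amygdala. In dorsal raphe it had 1333, 2094, 1736 and 1876 CPM in HR rats and 1670.2, 1794, 1963 and 842 CPM in LR rats. The low values sit in HR amygdala replicates 1 and 2 and in LR dorsal raphe replicate 4, and the regions overlapped in both lines. The log2 fold change averaged over lines was -0.70 ± 0.27 (SE), 95% interval -1.27 to -0.14, with an adjusted p of 0.0607 by edgeR. It passed in 7 of the 23 alternatives and was negative in all of them.

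The miR-145 arms, which come from the mural side, had region differences of the same size. miR-145-5p had 116, 237, 519 and 597 CPM in HR amygdala, against 658, 732, 740.4 and 698 CPM in HR dorsal raphe. In LR rats it had 565, 463, 705 and 670 CPM in amygdala, against 902, 939, 773 and 552 CPM in dorsal raphe. The HR regions did not overlap and the LR regions did. Averaged over lines its log2 fold change was -0.67 ± 0.27 (SE), 95% interval -1.24 to -0.10, with an adjusted p of 0.0740 by edgeR. miR-145-3p had 46.3, 81.3, 137 and 136 CPM in HR amygdala, against 157, 155, 139.9 and 144 CPM in HR dorsal raphe. In LR rats it had 72.4, 101, 137 and 125 CPM in amygdala and 164, 193, 184 and 115 CPM in dorsal raphe. Its log2 fold change averaged over lines was -0.58 ± 0.23 (SE), 95% interval -1.06 to -0.10, with an adjusted p of 0.0692 by edgeR. The 5p arm passed in 3 and the 3p arm in 4 of the 23 alternatives.

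miR-143-3p, from the same transcript as miR-145, was nearly level over the 4 groups except in 1 library. Its level was 29448, 22411, 24035 and 19163 CPM in HR amygdala and 22059.8, 16733, 19358 and 19257 CPM in LR amygdala. It was 21408, 24036, 20312 and 20008 CPM in HR dorsal raphe and 20228, 20675, 24125 and 105322 CPM in LR dorsal raphe. In 15 of 16 libraries it therefore lay within 16733 to 29448 CPM, and only LR dorsal raphe replicate 4 stood outside. Its log2 fold change averaged over lines was -0.49 ± 0.30 (SE), 95% interval -1.12 to 0.13, adjusted p 0.223 by edgeR. Without LR dorsal raphe replicate 4 it was 0.02 ± 0.13 (SE), 95% interval -0.25 to 0.29, so the negative value rested on that library. Whether miR-143-3p differed between regions otherwise than miR-145-5p was tested through their ratio within each library, described below.

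miR-143-5p, the rarely loaded arm, had 21.3, 27.0, 63.6 and 53.6 CPM in HR amygdala, against 72.5, 74.5, 70.3 and 69.0 CPM in HR dorsal raphe, with no overlap. In LR rats it had 53.6, 63.8, 74.8 and 83.5 CPM in amygdala and 80.4, 76.4, 73.2 and 28.0 CPM in dorsal raphe, with overlap. Its log2 fold change averaged over lines was -0.35 ± 0.25 (SE), adjusted p 0.314 by edgeR. Across the 6 members the median of these averaged log2 fold changes was -0.60, with all 6 below 0, beside a median of -0.08 over all miRNAs tested. The 6 strands are arms of shared hairpins and are not independent values. Without both libraries that stand apart these medians were -0.38 for the members and 0.22 for all miRNAs, and miR-143-3p was above 0, at 0.12.

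**Figure D2:**
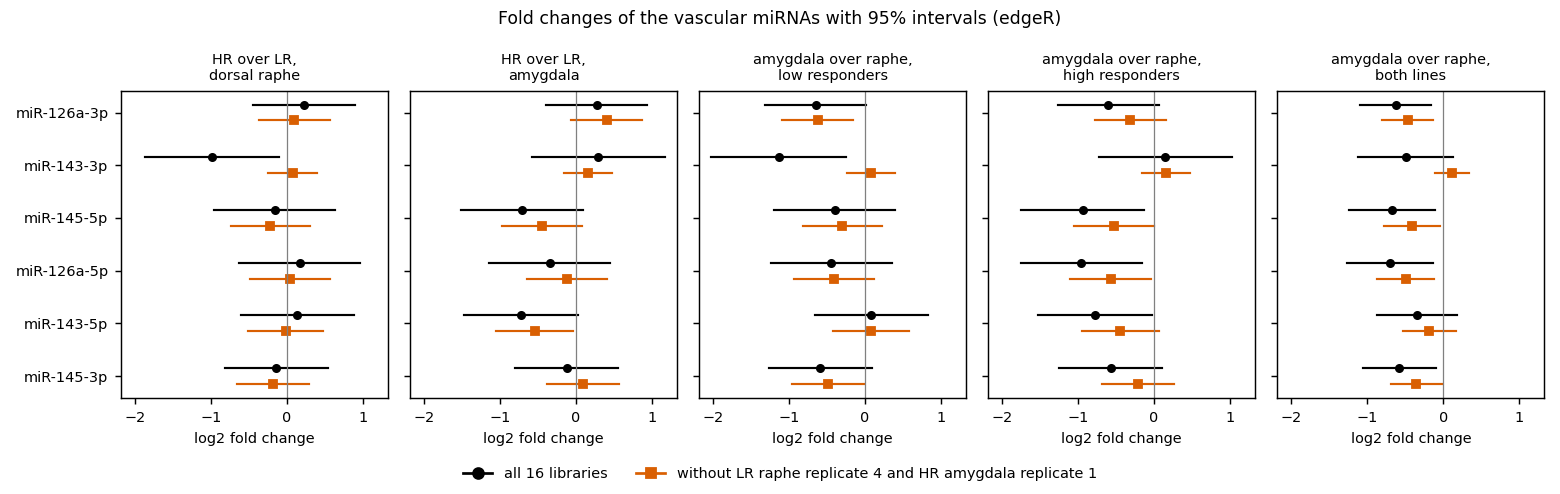
Log2 fold change of each member in each comparison with its 95% interval from edgeR, for all 16 libraries and for the 14 left without LR dorsal raphe replicate 4 and HR amygdala replicate 1. In the region comparison averaged over lines the miR-126a and miR-145 arms lie between -0.70 and -0.58 with all libraries, while miR-143-3p is at -0.49 with all libraries and at 0.12 without both.

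Within the lines the region differences were wider in their error. In HR rats 13.1% of all miRNAs were called, 6.57% as lower in amygdala, and 0 of 6 members. An unadjusted p under 0.05 by edgeR was held by 3 members and by 186 of the 639 miRNAs. DESeq2 called 2 members and 22.1% of all miRNAs with an adjusted p, and edgeR without both libraries that stand apart called 21.3% and no member. Values of HR amygdala and HR dorsal raphe did not overlap for 3 of 6 members, miR-143-5p, miR-145-3p and miR-145-5p, as for 23.5% of all miRNAs. The same 3 did not overlap without HR amygdala replicate 1, beside 26.6% of all miRNAs. The values farthest from 0 were -0.96 ± 0.38 (SE) for miR-126a-5p and -0.94 ± 0.38 (SE) for miR-145-5p, with adjusted p values of 0.108 and 0.117 by edgeR. miR-126a-3p had -0.60 ± 0.32 (SE), adjusted p 0.215 by edgeR. Without HR amygdala replicate 4 the calls over all miRNAs went to 128, against 84 with it, and without LR amygdala replicate 3 those in LR rats went to 47, against 90. These HR values of the members leaned on single libraries, in both directions. Without HR amygdala replicate 4 both 5p arms passed, miR-126a-5p at -1.20 with an adjusted p of 0.0454 and miR-145-5p at -1.24 with 0.0365 by edgeR. Without HR amygdala replicate 1 they were at -0.67 and -0.62, with adjusted p values of 0.281 and 0.247 by edgeR, and without both libraries that stand apart at -0.57 and -0.53. Their highest adjusted p, 0.307 and 0.312 by edgeR, came without HR amygdala replicate 2. In LR rats 14.1% of all miRNAs, 10.5% as lower in amygdala, and 0 of 6 members were called. There 1 member and 177 of the 639 miRNAs had an unadjusted p under 0.05 by edgeR. DESeq2 called 17.7% there and edgeR without both libraries that stand apart 19.9%, again with no member. None of the 6 was free of overlap between LR amygdala and LR dorsal raphe, against 19.2% of all miRNAs. Without LR dorsal raphe replicate 4, a comparison added after seeing the data, both miR-126a arms and both miR-145 arms, 4 of 6, were lower in LR amygdala with no overlap, beside 39.4% of all miRNAs. The member with an unadjusted p under 0.05 was miR-143-3p, at -1.14 ± 0.42 (SE) and adjusted p 0.0802 by edgeR, which became -0.05 without LR dorsal raphe replicate 4. The region differences of the lines share no library, and the interaction that compares them called 0% of all miRNAs and no member.

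The lines differed in no member past the threshold. In amygdala 0% of all miRNAs were called by edgeR, with 65 at an unadjusted p under 0.05, and none of the 6 members had an unadjusted p under 0.05. DESeq2 called 19 miRNAs there, 4.55% of those with an adjusted p, limma-voom 0, and edgeR without both libraries that stand apart 1.39%, none of them a member. miR-126a-3p had a log2 fold change for HR over LR amygdala of 0.27 ± 0.32 (SE). miR-143-5p and miR-145-5p were the farthest from 0, at -0.72 ± 0.36 with a 95% interval of -1.47 to 0.03, and at -0.71 ± 0.38 with -1.51 to 0.10, with adjusted p values of 0.485 and 0.556 by edgeR. The interval of miR-145-5p thus reaches well past a change of -1, and the p does not show that the lines were alike. Groups overlapped for all 6 members, while 8.76% of all miRNAs had none. Without HR amygdala replicate 1 they also all overlapped, with 12.2% of all miRNAs apart. In dorsal raphe edgeR likewise called 0% of all miRNAs, 70 of them having an unadjusted p under 0.05, and neither DESeq2 nor limma-voom called any. miR-126a-3p had 0.23 ± 0.32 (SE), 95% interval -0.44 to 0.89. miR-143-3p, the single member with an unadjusted p under 0.05, had -0.99 ± 0.42 (SE), 95% interval -1.88 to -0.10, adjusted p 0.370 by edgeR. Without LR dorsal raphe replicate 4 this was 0.12 ± 0.19 (SE), adjusted p 0.996 by edgeR. All 6 members overlapped between the lines in dorsal raphe, where 4.23% of all miRNAs did not. For both miR-145 arms the overlap came from LR dorsal raphe replicate 4 alone: without it HR dorsal raphe was below LR dorsal raphe in every library for these 2 of 6 members, beside 11.3% of all miRNAs, and neither was called. In the interaction of line and region edgeR called 0 miRNAs with 81 at an unadjusted p under 0.05, limma-voom 0, DESeq2 22 (5.26% of those with an adjusted p) and edgeR without both libraries that stand apart 0.463%, and none was a member. It gave 1.29 ± 0.59 (SE) for miR-143-3p and 0.15 without LR dorsal raphe replicate 4.

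LR dorsal raphe replicate 4 set the arms of miR-143 against each other. Relative to the mean of the other 3 libraries of its group, miR-143-3p was higher by 2.29 on the log2 scale, and 41 of the 639 miRNAs departed upward by more. miR-143-5p, cut from the same hairpin, departed by -1.44, and 78 miRNAs departed downward by more. The miR-126a arms were at -1.09 and -1.10 and the miR-145 arms at -0.65 each, beside a median over all miRNAs of 0.10. Of the 6 strands, miR-143-3p alone was above its group there, and its partner on the hairpin was the lowest of the 6 relative to theirs. The sizes depend on scaling: this library's factor was 0.596, against 0.870 to 1.27 in the other libraries, and a low factor raises all CPM of a library alike. As a share of counts miR-143-3p had 6.27%, against 2.19% to 2.41% in the rest of its group. For miR-126a-3p the share was 0.746%, against 2.60% to 3.24%. By share the rise was thus smaller and the falls larger.

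**Figure D3:**
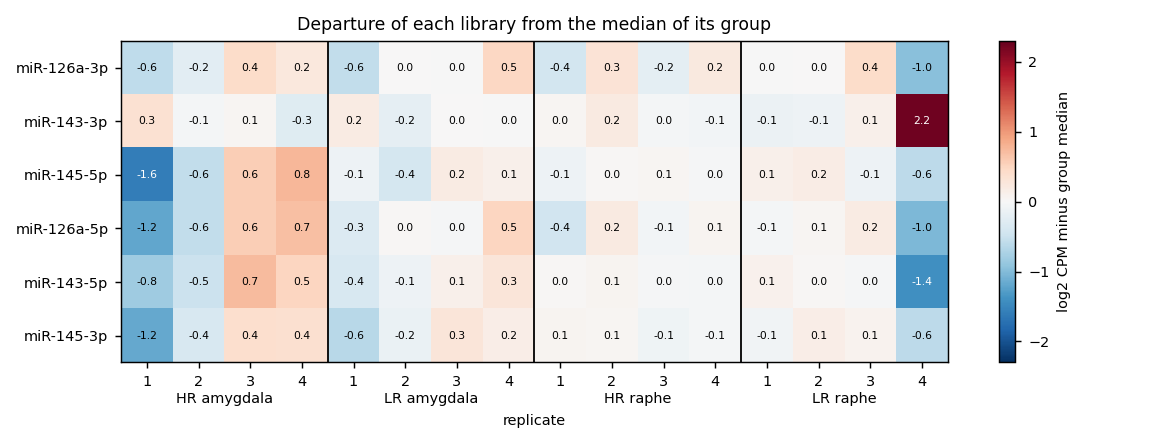
Log2 CPM of each member (rows) in each of the 16 libraries (columns) minus the median of its group, as a colour scale with the value printed in each cell. The strongest red is miR-143-3p in LR dorsal raphe replicate 4, at 105322 CPM beside a group median of 22399.9 CPM; the other 5 members are below their group in that library, and 5 of 6 are below it in HR amygdala replicate 1.

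Most marker lists had strands both above and below the rest of the group in that library, as had all miRNAs. The choroid plexus list had none below and the erythrocyte list none above. Of all 639 miRNAs, 297 were above and 254 below every other LR dorsal raphe library there. The counts above and below and the sums that follow are of CPM scaled by this library's low factor of 0.596, and depend on it. Of 14 miRNAs on the mural list, 8 were above and 5 below, and the list's sum of 38277 CPM, against 15075 to 21687 CPM in the other 3 LR dorsal raphe libraries, was 88.6% miR-21-5p. miR-10b-5p, which is high in smooth muscle, had 2610 CPM there and 240 to 316 CPM in the other 7 dorsal raphe libraries, while miR-195-5p had 163 CPM, against 471 to 682 CPM in the other LR dorsal raphe libraries. The endothelial list had 3 above and 7 below, with a sum of 8176 CPM against 14924 to 16129 CPM. The muscle list had 2 above and 3 below. Its sum of 5247 CPM, against 2107 to 2672 CPM, was 89.6% miR-1-3p, a miRNA of striated muscle, at 4697 CPM, while miR-133a-3p, its partner in muscle, had 92.9 CPM against 169 to 236 CPM. The leukocyte list had 3 above and 3 below of 7, and its sum of 13886 CPM, against 3790 to 4147 CPM, was 89.1% miR-146b-5p, while miR-142-3p had 28.8 CPM against 80.9 to 125 CPM. The oligodendrocyte list had 1 above and 3 below of 4, and miR-219-2-3p made up 87.2% of its 40513 CPM, against sums of 13933 to 16361 CPM. The neuron list had 4 above and 6 below of 10, with a sum of 68713 CPM against 51041 to 55657 CPM. The choroid plexus list had 8 above and none below of 9, with 11462 CPM against 4557 to 6994 CPM. The astrocyte list had 1 above and 2 below of 5, with 15780 CPM against 22411 to 27829 CPM, and the erythrocyte list none above and 4 below of 4, with 86.5 CPM against 142 to 167 CPM. In the mural, muscle, leukocyte and oligodendrocyte lists, whose sums were higher, a single strand thus made up 87.2% to 89.6% of the sum in this library. Lists with a lower sum also rested on single strands. miR-29a-3p made up 72.8% of the astrocyte sum, at 11484 CPM against 20309 to 25317 CPM. miR-24-3p made up 53.4% of the endothelial sum, at 4370 CPM against 9858 to 10958 CPM. In the other 3 LR dorsal raphe libraries miR-21-5p had 13426 to 19733 CPM and miR-1-3p 1125 to 1511 CPM. There miR-146b-5p had 2261 to 2547 CPM and miR-219-2-3p 7752 to 9763 CPM, so these strands were large parts of the other sums too. The part of other cells, of depth or of strand recovery in the high miR-143-3p value was not tested.

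Ratios between members of the same library need no scaling between libraries. The 3p strand of miR-143 outnumbered its 5p strand by 3757 to 1 in LR dorsal raphe replicate 4, against 252, 271 and 330 in the other 3. In HR amygdala the ratio was 1383, 831, 378 and 357, in LR amygdala 411, 262, 259 and 231, and in HR dorsal raphe 295, 323, 289 and 290.0. HR amygdala thus lay above HR dorsal raphe in all 4 libraries, by 1.06 on the log2 scale (9.28 ± 0.93 against 8.22 ± 0.08, SD, n = 4 each). The exact two-sided permutation p was 0.0286, the smallest that 4 against 4 libraries can give, and 0.143 when adjusted over the 20 ratio comparisons made. Without HR amygdala replicate 1 the difference was 0.68.

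The 2 strands of miR-126a kept a steadier ratio. 3p over 5p was 31.7, 26.2, 18.7 and 15.2 in HR amygdala, 11.3, 13.3, 13.5 and 13.2 in LR amygdala, 15.3, 16.2, 13.3 and 17.0 in HR dorsal raphe and 14.4, 13.6, 16.6 and 14.9 in LR dorsal raphe. HR amygdala stood above LR amygdala without overlap, by 0.78 on the log2 scale, with an exact permutation p of 0.0286 and 0.143 adjusted. LR amygdala stood below LR dorsal raphe without overlap, with a log2 difference of -0.21, again with 0.0286 and 0.143 by the exact permutation test. For miR-145, 3p over 5p was 0.399, 0.343, 0.263 and 0.227 in HR amygdala and 0.128, 0.219, 0.195 and 0.187 in LR amygdala, a difference of 0.75 on the log2 scale without overlap. It had the same exact permutation p, 0.0286 and 0.143 adjusted. With HR and LR amygdala libraries paired by number, an exact permutation of the signs of the 4 differences cannot go below a p of 0.125, and both differences between the lines had an adjusted p of 0.278. In all 3 hairpins the 2 HR amygdala libraries with the fewest counts, replicates 1 and 2, had the highest 3p shares of their group, and the part of depth in these differences was not tested. Over the 113 hairpins with at least 10 counts on both arms in every library, the within-group SD of the log2 arm ratio had a median of 0.576. It was 0.265 for miR-126a and 0.270 for miR-145, with 105 and 104 hairpins more variable, and 1.05 for miR-143, with 16 more variable.

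**Figure D4:**
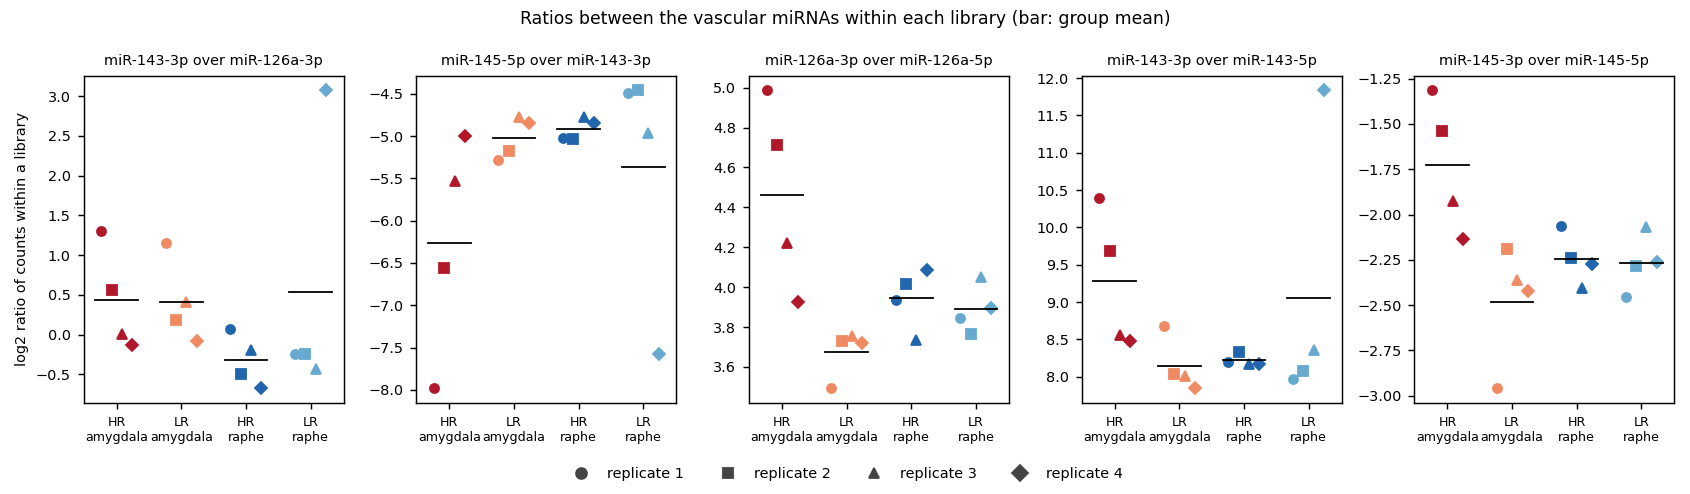
Log2 ratio of the counts of member pairs within each library, for the 4 groups, with a bar at each group's mean. miR-143-3p over miR-143-5p reaches 11.83 in LR dorsal raphe replicate 4, the HR amygdala mean of that ratio is 9.28, and the HR dorsal raphe libraries lie together around 8.22.

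The balance of the mural strand over the endothelial strand was close to 1 in most libraries. miR-143-3p over miR-126a-3p was 2.48, 1.48, 1.01 and 0.913 in HR amygdala, 2.22, 1.13, 1.33 and 0.948 in LR amygdala, 1.05, 0.708, 0.879 and 0.627 in HR dorsal raphe and 0.842, 0.847, 0.741 and 8.41 in LR dorsal raphe. HR amygdala was above HR dorsal raphe by 0.76 on the log2 scale, with overlap, at an exact permutation p of 0.114 and 0.229 adjusted, and by 0.47 without HR amygdala replicate 1. In LR rats the difference was -0.12 with LR dorsal raphe replicate 4 and 0.72 without it. miR-145-5p over miR-143-3p, the 2 main strands of the shared transcript, was 0.00394, 0.0106, 0.0216 and 0.0312 in HR amygdala, against 0.0307, 0.0305, 0.0365 and 0.0349 in HR dorsal raphe. The log2 difference of -1.35 had an exact permutation p of 0.0857 and 0.214 adjusted, and was -0.78 without HR amygdala replicate 1. In LR amygdala it was 0.0256, 0.0277, 0.0364 and 0.0348, against 0.0446, 0.0454, 0.0321 and 0.00524 in LR dorsal raphe. Of the 20 ratio comparisons, 4 reached the smallest possible p and none passed after adjustment.

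Other miRNAs of the vessel wall were compared by list. Of 13 miRNAs on the endothelial list, 2 rose in amygdala and none fell, averaged over lines, where 24.3% of all miRNAs were called: miR-221-3p by 2.90 ± 0.38 (SE) and miR-222-3p by 2.36 ± 0.19 (SE), with adjusted p values of 2.6e-05 and 7.2e-08 by edgeR. These 2 are clustered miRNAs of endothelial cells that neurons also express. The list's median was -0.12, beside -0.08 over all miRNAs, and the others did not pass, among them miR-130a-3p, which is also on the astrocyte list, at -0.40 and miR-503-5p at -0.51. Summed without the members, the list stood at 10442 to 20576 CPM in HR amygdala, 11833 to 23378 CPM in LR amygdala, 10332 to 15648 CPM in HR dorsal raphe and 8176 to 16129 CPM in LR dorsal raphe.

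Of 14 miRNAs on the mural list, 7 fell and 2 rose in amygdala, with a median of -0.67, beside 14.9% of all miRNAs called lower and 24.3% in either direction. miR-10b-5p fell by 4.30 and lies in a Hox gene cluster. miR-195-5p fell by 1.89 and miR-497-5p by 1.56, a pair from a single cluster, miR-490-3p fell by 1.14, and miR-28-5p, miR-28-3p and miR-21-5p fell by 0.88, 0.87 and 0.65. The 2 that rose, miR-214-5p by 1.15 and miR-214-3p by 1.04, come from the hairpin of a mesenchymal cluster and averaged 6.12 and 4.03 CPM. The adjusted p values by edgeR ran from 3.9e-05 for miR-10b-5p to 0.0426 for miR-21-5p. Without both libraries that stand apart, 5 fell and 2 rose, miR-28-3p and miR-21-5p no longer passing, beside 32.7% of all miRNAs called, and the list's median was -0.26 beside 0.22 over all miRNAs. The mural sum was 12480.0 to 16214 CPM in HR amygdala, 8190.2 to 16459 CPM in LR amygdala, 14303 to 20319 CPM in HR dorsal raphe and 15075 to 38277 CPM in LR dorsal raphe. In neither line comparison was a miRNA of either list called.

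**Figure D5:**
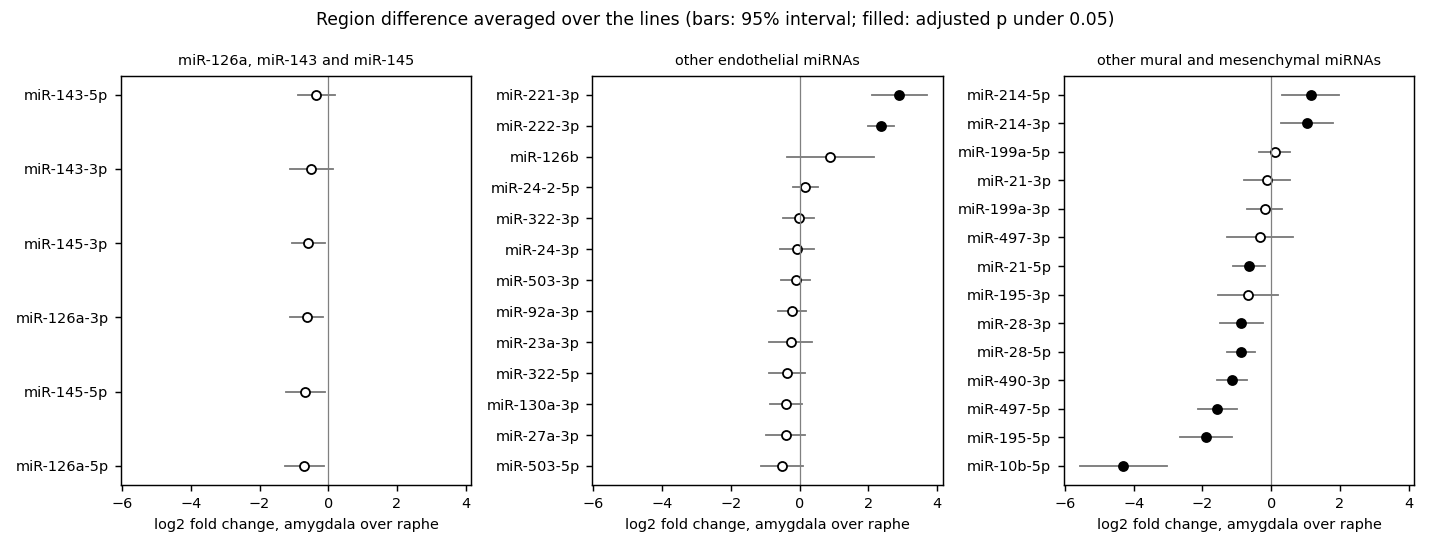
Log2 fold change for amygdala over dorsal raphe, averaged over lines, of each miRNA on the endothelial and mural lists and of the 6 members, with 95% intervals as bars and filled where the adjusted p by edgeR is under 0.05. The endothelial list has 2 filled points, miR-221-3p at 2.90 and miR-222-3p at 2.36; the mural list has 7 filled points below 0 and 2 above.

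Lists of other cell types were compared between the regions in the same way, beside 24.3% of all miRNAs called in either direction and 14.9% as lower. The muscle list fell in 5 of its 5 tested members, with a median of -2.35, and summed to 461 to 779 CPM in HR amygdala, 423 to 677 CPM in LR amygdala, 1825 to 2222 CPM in HR dorsal raphe and 2107 to 5247 CPM in LR dorsal raphe. The choroid plexus list rose in 6 of 9, the neuron list rose in 4 of 10 and the oligodendrocyte list fell in 3 of 4. In the leukocyte list 1 of 7 and in the astrocyte list 1 of 5 fell, shares near that of all miRNAs. Without both libraries that stand apart, where 32.7% of all miRNAs were called, the muscle list fell in 5 of 5, the choroid plexus list rose in 8 and the neuron list in 7, the oligodendrocyte list fell in 1, the leukocyte list rose in 1 and fell in none, and no miRNA of the astrocyte list passed. None of the 4 tested miRNAs of the erythrocyte list passed, and their sum lay at 70.8 to 350.1 CPM over the 16 libraries. The defining strands of the leukocyte list were low but present, miR-223-3p with 5 to 45 counts and miR-142-3p with 36 to 851 counts. Where these lists move with the members, their part in the region differences was not tested.

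The library to library course of the members was described by correlating log2 CPM over the 16 libraries, with group means removed, against the 406 other miRNAs that averaged at least 10 CPM. The points share depth and the 2 libraries that stand apart, so the values are a description. miR-126a-3p ran closest to miR-24-1-5p (r = 0.955), miR-24-3p (0.945), miR-369-5p (0.936), miR-411-5p (0.929) and miR-431 (0.926). Without both libraries that stand apart these were 0.939, 0.907, 0.909, 0.940 and 0.886. Its own 5p strand followed at 0.893, in place 15. miR-143-3p ran closest to miR-3559-3p (0.969), miR-582-3p (0.968), miR-28-3p (0.967), miR-100-5p (0.967) and miR-146b-5p (0.965), and over 14 libraries these fell back to 0.747, 0.448, 0.552, 0.644 and 0.468. miR-143-3p and miR-126a-3p correlated at -0.635 over 16 libraries and at 0.02 over 14. With its own 5p strand miR-143-3p correlated at -0.741 over 16 libraries and at -0.11 over 14. The other strands correlated with one another at values that many miRNAs reached. miR-145-3p and miR-145-5p correlated at 0.899, place 35 of 406 for miR-145-3p, and at 0.721 and place 84 over 14 libraries. miR-143-5p correlated with miR-145-3p at 0.881 and with miR-145-5p at 0.842, places 81 and 105, and at 0.861 and 0.867 over 14 libraries. miR-126a-5p was as close to these strands, at 0.919 with miR-143-5p, 0.887 with miR-145-5p and 0.886 with miR-145-3p, and at 0.847, 0.777 and 0.729 over 14 libraries.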

How the data were processed

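The deposited files gave 1 count per mature miRNA and library, raw whole-number counts made by the authors. Adapters were trimmed with cutadapt 1.3.1, and Bowtie2 and bedtools 2.14.2 were used, per the submitters' processing notes. Genome build, annotation, strand use and the treatment of multiply mapped reads were not stated in the labels or file headers and could move reads between overlapping miRNAs. RNA was extracted with the miRNeasy kit and libraries were size selected, per the labels' protocols.

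Counts were fitted with edgeR 4.0.16 (quasi-likelihood, robust, trimmed mean of M-values, R 4.3.3) in 1 model with 4 group means over 16 libraries, after a filter (minimum count 10, minimum total 15) that kept 639 of 722 miRNAs. Benjamini-Hochberg adjustment ran over these 639 in each of 6 contrasts, with a threshold of 0.05. The model assumes 1 spread for all groups. Intervals are 95% and floors are 3 counts; both cover error of counting or spread only, since reads without molecular identifiers are not independent molecules. Ratios used counts plus 1 on the log2 scale in exact two-sided permutation tests over libraries. Alternatives were other scalings, no filter, DESeq2 1.42.0, limma-voom 3.58.1, a replicate block and leaving out libraries. The block was fitted over all 4 groups, also those not taken as paired. The permutation tests were checked on made-up values with a known answer.

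The members and all lists (endothelial, mural, erythrocyte, leukocyte, muscle, choroid plexus, oligodendrocyte, neuron, astrocyte) were chosen with earlier results of these data known. Named miRNAs are the members, the called members of the endothelial and mural lists with the 2 others of lowest p, the 5 most like miR-126a-3p and miR-143-3p, and, chosen after their values were seen, single strands of the lists given by library. Coordinates and sequences are RefSeq's on GRCr8, matched by mature name. The labels give numbers 1 to 4 in each group. Same-numbered HR and LR amygdala libraries deviated together (r = 0.688, 0.290, 0.212 and 0.509), and the number was taken to pair those groups. In every other pair of groups at least 1 correlation was 0.1 or lower. For HR amygdala and HR dorsal raphe this was replicate 2 alone, at -0.275 beside 0.675, 0.353 and 0.531. Only same-numbered libraries were correlated, so these values cannot show that the number marks a pair, and the pairing is an assumption.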

Additional observations from a re-analysis of the deposited data

Results flagged for a closer look

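Within each group of 4 libraries the gap between the farthest library and its neighbour was set against the group's whole range, and 6 of 44 groups of values had a gap above Dixon's 95% critical value for 4 values. Chance flags about 1 in 20 such groups, and the 6 values share libraries and strands. In LR dorsal raphe replicate 4, miR-143-3p stood at 16.68 on the log2 CPM scale, above its group, with a gap of 0.893 of the range. miR-143-5p of the same library stood at 4.83, below its group, with a gap of 0.910. Their log2 ratio, 3p over 5p, was 11.83 (gap 0.899). The log2 ratio of miR-143-3p over miR-126a-3p was 3.07 (gap 0.945), and that of miR-145-5p over miR-143-3p was -7.57 (gap 0.839). Over the 113 hairpins with enough counts, the log2 arm ratio of miR-143 in that library departed by 3.70 from the other 3 of its group, with 5 hairpins higher, while those of miR-126a and miR-145 departed by 0.01 each. The remaining value was the log2 ratio of miR-126a-3p over miR-126a-5p in LR amygdala replicate 1, at 3.49, below its group (gap 0.863), and it is 1 of the 4 values behind both differences of that ratio given for LR amygdala.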

How the results depend on the processing

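No member was called between the lines, between regions in LR rats or in the interaction under any alternative run. Averaged over lines, 4 members were called as lower in amygdala with library totals as scaling, beside 177 of all 639 miRNAs in either direction. These were miR-126a-3p, miR-126a-5p and both miR-145 arms. The members called numbered 3 with DESeq2, beside 203 of all miRNAs, 2 with limma-voom, beside 144, and 3 with the replicate block, beside 188. They numbered 2 without both libraries that stand apart, beside 212 of 648, and 0 to 3 leaving out 1 library, beside 114 to 218. In HR rats the members called numbered 2 with library totals, beside 111 of all miRNAs, 2 with DESeq2, beside 136, and 1 with limma-voom, beside 90. Leaving out 1 library gave 0 to 2 there, beside 61 to 128. The block changed no other call of a member; DESeq2 gave miR-143-3p no adjusted p. Library totals moved the median of all miRNAs by -0.19 in HR rats and by 0.20 between lines in dorsal raphe. Log2 fold changes that turned sign without both libraries were miR-143-3p (0.074 between lines in dorsal raphe, 0.080 in LR rats, 0.12 averaged), miR-143-5p (-0.015 in dorsal raphe) and miR-145-3p (0.088 in amygdala). With library totals they were miR-145-3p and miR-145-5p (0.043 and 0.0089 in dorsal raphe) and miR-143-3p (-0.0068 in HR rats). The cause was not tested. Leaving out 1 library gave ranges across 0 for miR-143-3p (-1.16 to 0.12 in dorsal raphe, -0.58 to 0.020 averaged), miR-145-3p (-0.18 to 0.0030 in dorsal raphe, -0.35 to 0.090 in amygdala) and miR-143-5p (-0.035 to 0.28 in LR rats). Log2 ratios did so for miR-143-3p over miR-126a-3p (-0.27 to 0.27 in amygdala, -0.44 to 0.72 in LR rats), miR-143-3p over miR-143-5p (-1.20 to 0.083 in dorsal raphe, -1.28 to 0.0058 in LR rats), miR-145-3p over miR-145-5p (-0.042 to 0.088 in dorsal raphe) and miR-145-5p over miR-143-3p (-0.28 to 0.76 in dorsal raphe, -0.39 to 0.65 in LR rats). Calls over all miRNAs between lines in amygdala went to 2 with library totals, 19 with DESeq2 and 9 without both libraries; in HR rats 84 became 136 with DESeq2 and 138 without both; the interaction gave 1 with no filter, 22 with DESeq2 and 3 without both.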
